A study of Mus musculus with 30 samples.

Results

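The 9 genes described here are markers of plasmacytoid dendritic cells: Siglech, Bst2, Tcf4, Ly6d, Spib, Runx2, Ccr9, Cox6a2 and Klk1. They were taken by gene symbol from a table of 25611 gene rows, and all 9 were among the 14808 genes with enough counts to test. RNA was sequenced from dendritic cells grown out of mouse bone marrow with FLT3L at 200 ng/ml for 6 to 7 days. Some of the cultures came from mice with a knockout of Rubcn (KO), the gene for Rubicon, a protein of LC3-associated phagocytosis, and the others from wild-type mice (WT). Each genotype had an untreated group and 4 treated ones: ovalbumin (OVA), a soluble protein antigen, for 30 min or for 4 h, and dying cells of the human T-cell line Jurkat, labelled apoptotic, for the same times. That makes 10 groups of 3 libraries. The labels do not say whether the 3 libraries of a group came from separate mice, so p-values measure only the spread between libraries, which may be technical. They also do not give the mouse strain, the age, the allele or how apoptosis was induced.

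Plasmacytoid dendritic cells are circulating immune cells that sense viral nucleic acids in endosomes and answer with large amounts of type I interferon. FLT3L drives bone marrow progenitors into both plasmacytoid and conventional dendritic cells, so such a culture is a mixture. The transcription factor E2-2, encoded by Tcf4, holds the plasmacytoid programme in place, and Spi-B and Runx2 act with it, Runx2 chiefly in the release of these cells from the marrow. In bulk RNA, fewer cells of a type and less RNA per cell cannot be told apart.

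Library totals ran from 9.73 M counts up to 51.6 M, the median being 44.9 M, and the shallowest was replicate 3 of the KO cultures given OVA for 30 min. Levels are CPM (counts-per-million) on library sizes scaled by the trimmed mean of M-values (TMM). Among replicate pairs, KO replicate 2 at 4 h of Jurkat cells stood apart, with a chi-square per degree of freedom of 129 and 134 against its 2 replicates, where the other 28 pairs ran from 2.28 to 16.7. That library was the lowest of its group for all 9 markers. The knockout could be checked only in part: Rubcn stood at 73.6% to 84.7% of WT across the 5 conditions, without overlap between the genotypes in any, so most of its counts remained. Besides the plasmacytoid markers, the untreated WT cultures carried 12 markers of type 1 conventional dendritic cells at a summed 3203 to 3428 CPM, 12 of type 2 at 2120.3 to 2186 CPM and 12 of monocytes or macrophages at 3216 to 3506 CPM. Summed over the 9 plasmacytoid markers, the level was 3055 to 3117 CPM there and 2649 to 2821 CPM in untreated KO cultures.

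The promoter search covered 6 of the 9 markers. Tcf4, Ly6d and Cox6a2 were not searched, so nothing can be said here about motifs in their promoters. For the 6 markers searched, the stretch of 250 bases before the transcription start was taken from RefSeq's table for GRCm38.p6. Of these, Bst2 and Siglech are shown, since Bst2 had the steadiest difference between genotypes and the larger response to Jurkat cells of that pair, while Siglech did not respond that way. Capitals mark every match to 5 motifs, searched on both strands: the E-boxes CACCTG and CAGCTG, the letters bound by E proteins such as E2-2, the RUNX motif TGTGGT, the PU.1-type ETS motif GAGGAA, and the interferon response element, GAAA, any 2 bases and GAAA. The Bst2 stretch lies at chr8:71537473-71537722, minus strand, and the Siglech stretch at chr7:55767934-55768183, plus strand.
Bst2: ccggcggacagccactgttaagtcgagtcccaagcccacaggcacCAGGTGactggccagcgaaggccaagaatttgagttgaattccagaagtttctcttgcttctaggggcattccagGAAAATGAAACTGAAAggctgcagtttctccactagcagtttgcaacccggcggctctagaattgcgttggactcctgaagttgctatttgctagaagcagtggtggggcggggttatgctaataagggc
Siglech: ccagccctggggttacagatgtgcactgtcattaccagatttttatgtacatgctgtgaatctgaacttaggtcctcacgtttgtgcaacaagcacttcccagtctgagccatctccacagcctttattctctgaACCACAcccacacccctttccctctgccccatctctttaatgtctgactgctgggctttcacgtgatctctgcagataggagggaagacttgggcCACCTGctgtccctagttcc
Bst2 held a pair of overlapping interferon response elements, at -130 to -121 and -124 to -115 from the start, and an opposite-strand CACCTG at -205 to -200. Siglech held CACCTG at -20 to -15 and an opposite-strand TGTGGT at -115 to -110. Among 32851 promoter stretches of that length, an interferon response element stood in 2.98%, CACCTG in 17.2%, CAGCTG in 13%, TGTGGT in 14% and GAGGAA in 23.3%. In the other 4, Ccr9 and Klk1 each held an opposite-strand CACCTG, at -85 to -80 and -87 to -82, Runx2 held an opposite-strand TGTGGT at -80 to -75, and Spib held none of these letters in the window. A match is a string of letters, not a measured binding site.

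Across genotypes, most of the markers were lower in KO cultures and 1, Cox6a2, was higher. A gene was called changed at an adjusted p under 0.05, from edgeR's quasi-likelihood test with Benjamini-Hochberg adjustment over all 14808 genes. In untreated cultures 5 of 9 markers were lower and 1 higher in KO, where 3.97% of all genes tested were called lower, 6% higher and 9.97% either way. With 30 min of OVA, 6 were lower against 6.13% of all genes and 1 higher against 6.25% (12.4% either way). With 30 min of Jurkat cells, 4 were lower against 3.67% and 1 higher against 5.58% (9.25% either way). OVA for 4 h gave 5 lower against 6.35% and 1 higher against 6.22% (12.6% either way). Jurkat cells for 4 h gave 7 lower against 13.5% and 1 higher against 9.37% (22.9% either way). The KO and WT libraries did not overlap for 8 of 9 markers untreated, where 24.8% of all genes did not, and for 7 (28.7%), 6 (26%), 7 (33.2%) and 8 (36.5%) in the other conditions in that order. The median log2 difference over the 9 markers was -0.23 untreated, -0.31, -0.19 and -0.21 in the next 3 conditions and -0.26 at 4 h of Jurkat cells, while the median over all genes tested lay between -0.01 and 0.00. Siglech, Bst2, Spib and Klk1 were called lower in all 5 conditions and Cox6a2 higher in all 5. Of all genes tested, 0.831% were called lower and 1.45% higher in all 5. Those 5 comparisons use separate libraries but share 1 fit. Whether the cultures of different conditions came from the same mice is not given, so they may not be independent.

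**Figure D1:**
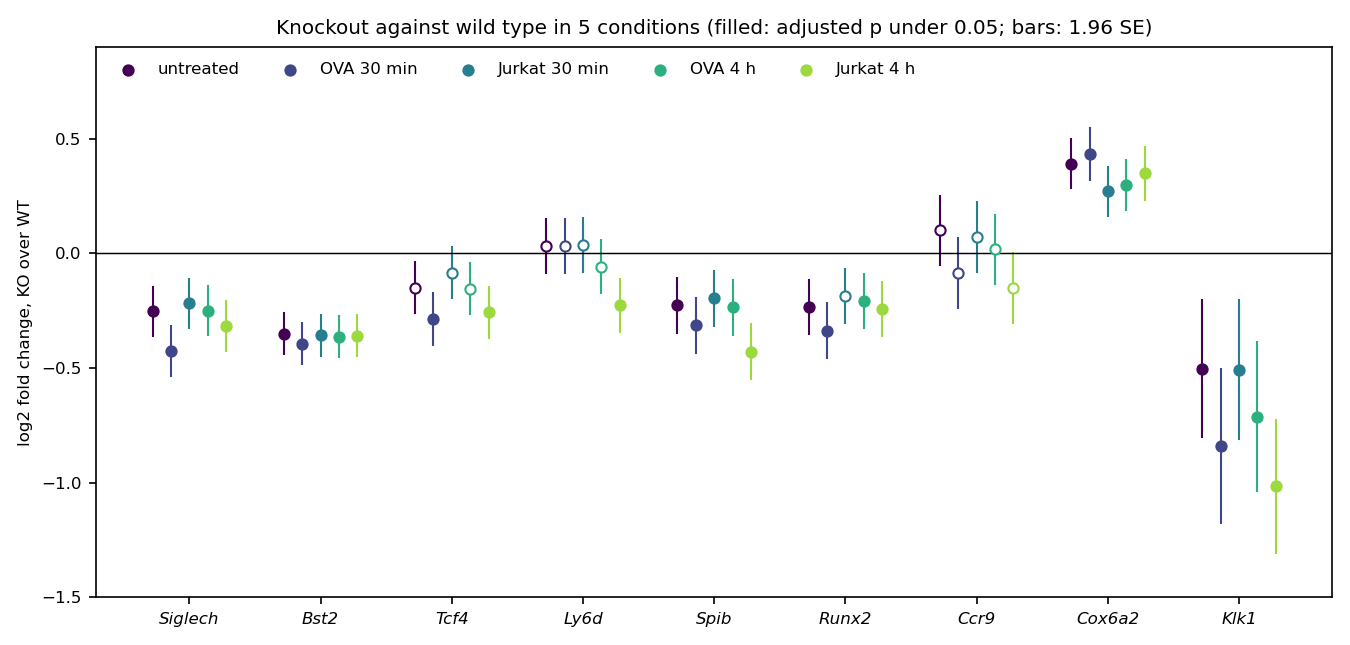
Log2 fold change of KO over WT (vertical axis) for each of the 9 markers in 5 conditions, with bars of 95% intervals and filled points where adjusted p was under 0.05. Bst2 sits at about the same depth in every condition (-0.35 to -0.39), Cox6a2 lies above 0 throughout, and Ccr9 has no filled point.

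Leaving out single libraries moved the count by over 1.5 times in 3 of the 5 conditions. Without untreated KO replicate 2, the untreated count was 3. At 30 min of Jurkat cells it was 3 without KO replicate 1, KO replicate 2, WT replicate 2 or WT replicate 3, and 2 without KO replicate 3. At 4 h of OVA it was 3 without KO replicate 1. Jurkat cells for 4 h gave counts of 6 to 9 in place of 8, with 6 called without KO replicate 2. Bst2 and Cox6a2 were called in all 5 conditions whichever library was left out.

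Siglech encodes Siglec-H, a surface lectin that marks mouse plasmacytoid cells and dampens their interferon output. In untreated cultures it stood at 808, 805 and 787 CPM in WT replicates 1 to 3 and at 713, 647 and 654 CPM in KO. Every KO library was below every WT library, and this held in all 5 conditions. The log2 difference was -0.25, -0.42, -0.22, -0.25 and -0.32 from untreated through 30 min OVA, 30 min Jurkat, 4 h OVA and 4 h Jurkat, with adjusted p of 0.00356, 1.02e-05, 0.0149, 0.00315 and 0.000185. At 30 min of Jurkat cells the call was lost without KO 30 min Jurkat replicate 2 or 3 or WT 30 min Jurkat replicate 1, with values of -0.21, -0.21 and -0.21 at adjusted p of 0.0522, 0.0624 and 0.0559. Differences between treatments were small. With 4 h of OVA Siglech read 739, 703 and 726 CPM in WT and 590, 618 and 617 CPM in KO, below the untreated libraries without overlap. Neither fall was called in the main fit. In WT it passed in several other settings, among them DESeq2, at -0.15 and adjusted p = 0.0372. In KO it passed with the compared groups alone, at -0.14 and adjusted p = 0.0409. After 4 h of Jurkat cells it read 705, 791 and 655 CPM in WT and 587, 535 and 605 CPM in KO, a log2 difference from untreated of -0.16 (SE 0.057, adjusted p = 0.0133) and -0.22 (SE 0.057, adjusted p = 0.000895). WT replicate 2 at 4 h lay within the untreated range, and the WT call was lost without WT 4 h Jurkat replicate 3, at -0.10 and adjusted p = 0.13, and with DESeq2's size factors, the stricter filter and DESeq2, at -0.09, -0.10 and -0.09 and adjusted p of 0.142, 0.0884 and 0.137.

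Bst2 encodes tetherin, a membrane protein that holds budding virions on the cell. It is a plasmacytoid marker in resting mice and an interferon-stimulated gene in many other cells. It read 458, 479 and 467 CPM in untreated WT and 363, 374 and 363 CPM in untreated KO cultures. With 4 h of Jurkat cells the values were 921, 1029 and 988 CPM in WT and 780.3, 730.1 and 782 CPM in KO, above all other groups of the same genotype. KO libraries were below WT libraries in every condition without overlap. The log2 difference of KO from WT hardly varied, at -0.35, -0.39, -0.36, -0.36 and -0.36, with adjusted p of 8.88e-06, 2.18e-06, 1.04e-05, 3.43e-06 and 4.64e-06. From untreated to 4 h of Jurkat cells Bst2 rose by 1.07 (SE 0.048, adjusted p = 2.75e-18) in WT and by 1.06 (SE 0.048, adjusted p = 3.74e-18) in KO. The difference between those responses was -0.01, with a 95% interval of -0.14 to 0.12. Among the other treatments, no call was made for Bst2 in either genotype, with log2 differences from untreated between -0.11 and 0.07.

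Interferon-stimulated genes were lower in KO and rose with 4 h of Jurkat cells as Bst2 did, but not in step with it in every comparison, and their part in its differences was not tested. Of 25 such genes in a list without Bst2, 23 were lower in untreated KO cultures, and 19, 9, 25 and 14 in the other 4 conditions in the order above, with 2 higher at 30 min of Jurkat cells. Of all genes tested, 3.97% were lower untreated and 6.13%, 3.67%, 6.35% and 13.5% in those conditions. At 30 min of Jurkat cells 5.58% of all genes were higher. Their summed level was 1552 to 1675 CPM in untreated WT and 937 to 999 CPM in KO cultures. At 30 min of Jurkat cells the 3 KO libraries summed to 923, 1033.5 and 1921 CPM in order of size. WT libraries ran from 1365 to 1486 CPM, so the highest KO sum lay above them and the others below. Bst2 read 391, 372 and 383 CPM in KO replicates 1 to 3. With that 1 high KO library included, the list's median log2 difference was -0.04, while that of Bst2 was -0.36. After 4 h of OVA all 25 rose in both genotypes, where 11.9% of all genes rose in WT and 5.94% in KO. The medians of the 25 were 1.07 in WT and 1.06 in KO, and Bst2 was not called.

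Ly6d encodes a small GPI-anchored surface protein of B-cell progenitors and plasmacytoid cells of lymphoid descent. It read 199, 207 and 201 CPM in untreated WT and 216, 202 and 204 CPM in untreated KO cultures, and the groups overlapped. No genotype difference was called in the first 4 conditions, where log2 values ran from -0.06 to 0.04. In untreated cultures the 95% interval was -0.09 to 0.15. The listed relatives Ly6e and Ly6k were called lower in KO in all 5 conditions, as were 0.831% of all genes tested. Ly6k was scarce, at 0.631 CPM per kb of exon in untreated WT. Given Jurkat cells for 4 h, Ly6d read 586, 702 and 599.8 CPM in WT and 560.5, 497 and 555 CPM in KO, well above all other groups and with KO below WT. That rise, 1.64 (SE 0.063, adjusted p = 6.39e-20) in WT and 1.38 (SE 0.063, adjusted p = 4.03e-18) in KO, was the largest of the 9 markers in both genotypes under each of the 3 scalings tried. KO then lay -0.23 (SE 0.061, adjusted p = 0.00783) from WT. This call was lost without KO 4 h Jurkat replicate 2 or WT 4 h Jurkat replicate 2, with values of -0.17 and -0.14 at adjusted p of 0.0718 and 0.114. With total-count scaling it stood at -0.14 and adjusted p = 0.0502. Ly6d also rose with 4 h of OVA, to 262, 272 and 259 CPM in WT and 248, 251 and 262 CPM in KO, by 0.38 (SE 0.062, adjusted p = 3.03e-05) and 0.29 (SE 0.062, adjusted p = 0.00174).

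Ccr9 encodes the receptor for the gut chemokine CCL25 and marks mature plasmacytoid cells. Untreated levels were 276, 269 and 267 CPM in WT and 312, 278 and 281 CPM in KO, with every KO library above every WT library but no call. It was the one marker with no genotype call in any condition, its log2 differences being 0.10, -0.08, 0.07, 0.02 and -0.15. The interval in untreated cultures was -0.06 to 0.26, so a difference of the size seen for Cox6a2 lay outside it. Without WT 4 h Jurkat replicate 3, whose value was the lowest of its group, the 4 h Jurkat difference was -0.25 and passed, at adjusted p = 0.0294. With 4 h of Jurkat cells Ccr9 read 207, 254 and 186 CPM in WT and 192, 183 and 207 CPM in KO. It fell by 0.33 on the log2 scale in WT (SE 0.08, adjusted p = 0.000486) and by 0.58 in KO (SE 0.08, adjusted p = 1.68e-07). At 30 min of Jurkat cells it had been at its highest, 332, 306 and 323 CPM in WT and 346, 332 and 331 CPM in KO.

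**Figure D2:**
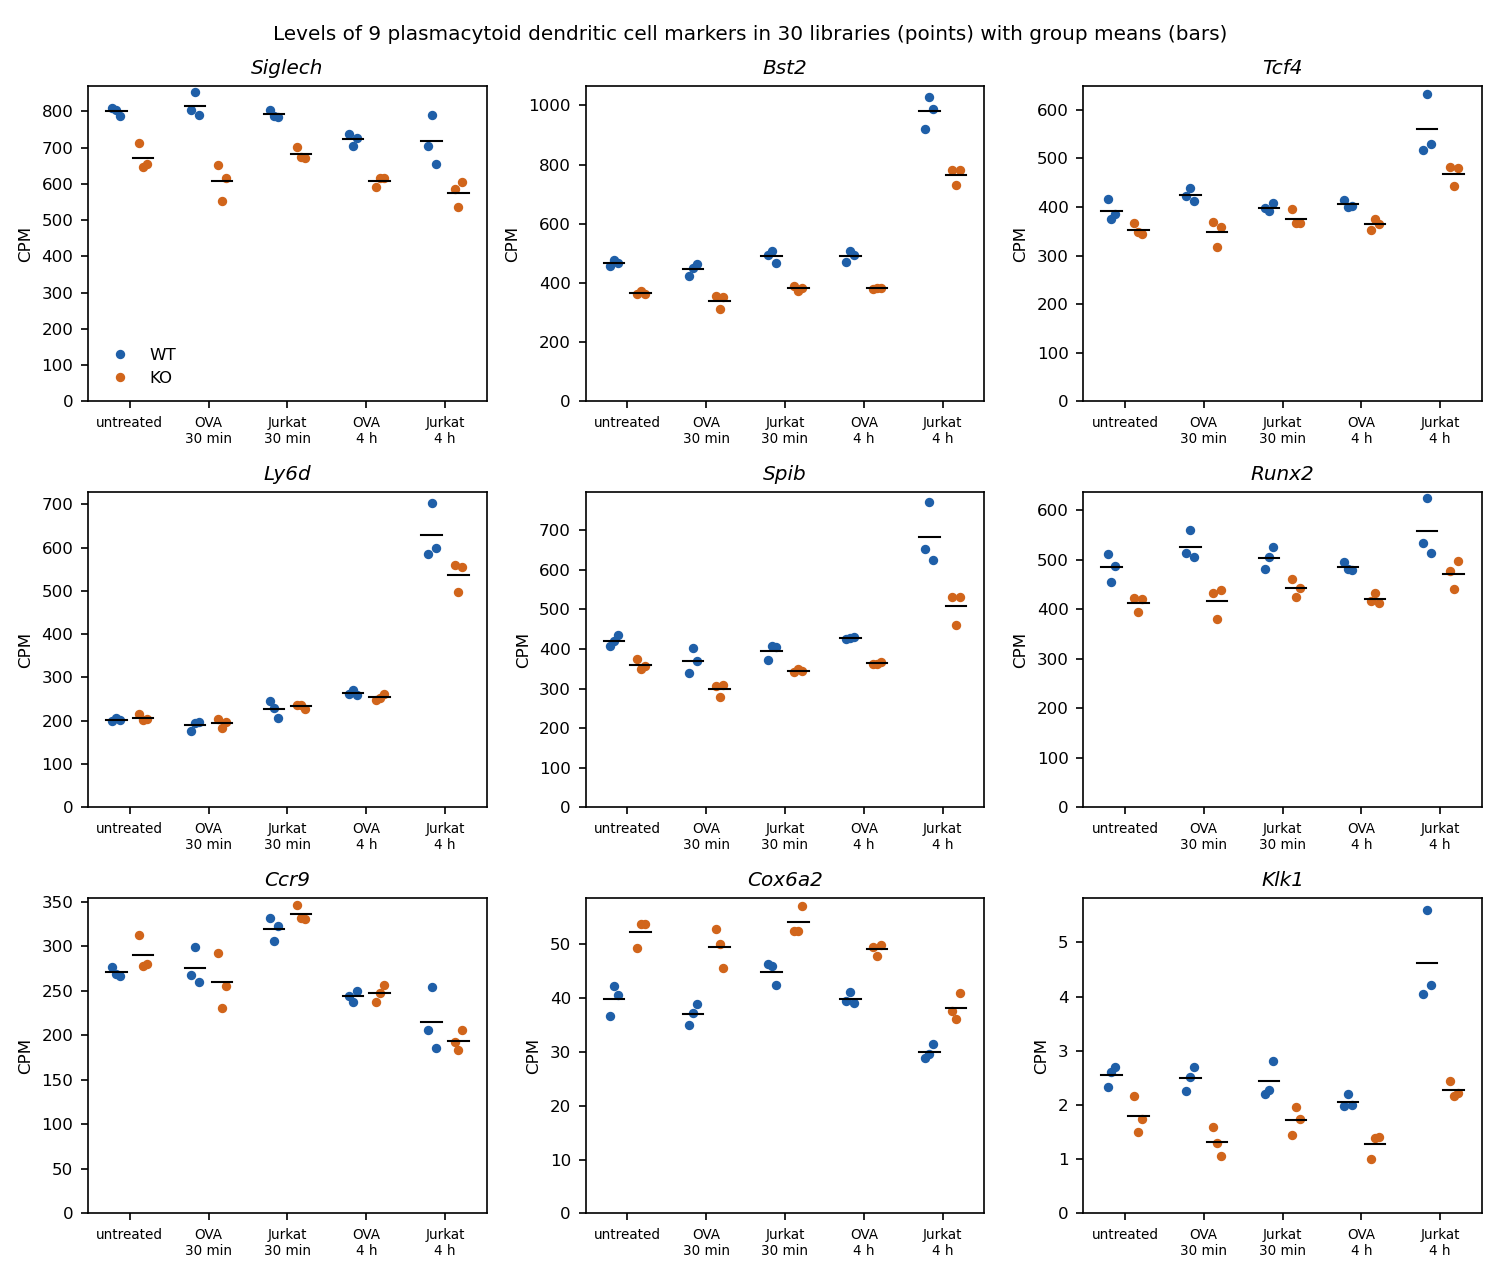
CPM (vertical axes, from 0) of the 9 markers in each of 30 libraries, WT in blue and KO in orange, by condition, with black bars at group means. Bst2, Tcf4, Ly6d, Spib and Klk1 are highest at 4 h of Jurkat cells in both genotypes, Klk1 in KO narrowly and without a call by edgeR. The group means of Ccr9 and Cox6a2 are lower there than at other conditions, and KO points lie above WT points for Cox6a2.

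Among the transcription factors, Tcf4 encodes E2-2. It read 416, 375 and 384 CPM in untreated WT and 368, 348 and 345 CPM in KO cultures. KO libraries were lower without overlap, with a log2 difference of -0.15, which missed the threshold, at adjusted p = 0.122. Calls were made with 30 min of OVA, -0.29 (SE 0.06, adjusted p = 0.00164), and with 4 h of Jurkat cells, -0.26 (SE 0.059, adjusted p = 0.00222), and both held without any 1 library. At 30 min of Jurkat cells the difference was -0.08, at adjusted p = 0.436. At 4 h of OVA it was not called, but with the compared groups alone it passed, at -0.15 and adjusted p = 0.00352. With Jurkat cells for 4 h the libraries stood at 516, 633 and 529.7 CPM in WT and 481, 444 and 480.1 CPM in KO, a rise from untreated of 0.51 (SE 0.06, adjusted p = 5.88e-09) and 0.41 (SE 0.06, adjusted p = 4.63e-07). Scaled by total counts, these were 0.11 and 0.07 and no longer passed, at adjusted p of 0.0624 and 0.245.

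Spib encodes Spi-B, an ETS factor of plasmacytoid and B cells. It stood at 409, 419.6 and 436 CPM in untreated WT and 374, 349 and 357 CPM in KO cultures. Jurkat cells for 4 h gave 654, 772 and 626 CPM and 530.4, 461 and 532 CPM. Spib was lower in KO in all 5 conditions without overlap. Its log2 differences were -0.23, -0.31, -0.20, -0.23 and -0.43, with adjusted p of 0.0195, 0.00136, 0.0497, 0.0127 and 1.8e-05. In untreated cultures the call was lost without KO untreated replicate 2 or 3 or WT untreated replicate 2 or 3, with values of -0.20, -0.22, -0.23 and -0.20 at adjusted p of 0.088, 0.055, 0.053 and 0.0854. At 30 min of Jurkat cells it was lost without KO 30 min Jurkat replicate 1 or 2 or 3 or WT 30 min Jurkat replicate 2 or 3, with values of -0.19, -0.20, -0.20, -0.17 and -0.17 at adjusted p of 0.11, 0.0935, 0.124, 0.185 and 0.146. With OVA for 4 h it was lost without KO 4 h OVA replicate 1, with a value of -0.23 at adjusted p of 0.0528. Blocking on the replicate number also ended the 30 min Jurkat call, at adjusted p = 0.057. The other conditions, 30 min of OVA and 4 h of Jurkat cells, kept their calls without any 1 library. Over 4 h of Jurkat cells Spib rose by 0.70 (SE 0.064, adjusted p = 3.83e-11) in WT and 0.50 (SE 0.063, adjusted p = 4.09e-08) in KO. In KO cultures it fell with 30 min of OVA, by 0.27 on the log2 scale (SE 0.064, adjusted p = 0.0122), with library values of 307, 279 and 309.5 CPM. That call was lost without KO 30 min OVA replicate 2 or KO untreated replicate 1, with values of -0.23 and -0.24 at adjusted p of 0.124 and 0.0642.

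Runx2 encodes a RUNX factor best known from bone and used by plasmacytoid cells for leaving the marrow. Levels were 512, 456 and 488 CPM in untreated WT and 423, 395 and 419.9 CPM in KO cultures. Its KO libraries were below the WT libraries in all 5 conditions. The log2 differences were -0.23, -0.34, -0.19, -0.21 and -0.24, and all but that at 30 min of Jurkat cells passed, with adjusted p of 0.0145, 0.000542, 0.0562, 0.0268 and 0.00555. That exception passed with total counts, no filter, the compared groups alone and DESeq2, at adjusted p of 0.0472, 0.0419, 0.0429 and 0.0278. In untreated cultures the call was lost without KO untreated replicate 2 or WT untreated replicate 1, with values of -0.20 and -0.19 at adjusted p of 0.0834 and 0.085. With OVA for 4 h it was lost without KO 4 h OVA replicate 1 or 3 or WT 4 h OVA replicate 1 or 2, with values of -0.20, -0.19, -0.19 and -0.21 at adjusted p of 0.0958, 0.0919, 0.104 and 0.0593. With Jurkat cells for 4 h it was lost without KO 4 h Jurkat replicate 2 or WT 4 h Jurkat replicate 2, with values of -0.20 and -0.15 at adjusted p of 0.0503 and 0.0881. The rise over 4 h of Jurkat cells was small, 0.20 in WT and 0.19 in KO, and with total-count scaling Runx2 was instead called lower, at -0.20 in WT and -0.15 in KO. The WT rise was also lost without WT 4 h Jurkat replicate 2, at 0.11 and adjusted p = 0.105, and the KO rise without KO 4 h Jurkat replicate 3, at 0.15 and adjusted p = 0.0536. Runx2 shares 37632 bases with Supt3 on the opposite strand, and whether counting used strand is not given in the sources used here. Over all libraries Supt3 had 22770 counts and Runx2 620826.

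Cox6a2 encodes the heart and muscle form of a cytochrome c oxidase subunit, whose transcript also marks plasmacytoid cells. It read 36.7, 42.3 and 40.6 CPM in untreated WT and 49.4, 53.8 and 53.7 CPM in KO cultures. All KO libraries lay above all WT libraries within each condition. KO over WT was 0.39, 0.43, 0.27, 0.30 and 0.35 on the log2 scale, with adjusted p of 2.74e-05, 1.27e-05, 0.00259, 0.000513 and 0.000136. Its widely expressed relative Cox6a1 was not called between untreated genotypes, at -0.03 (SE 0.045, adjusted p = 0.798). Over 4 h of Jurkat cells Cox6a2 fell to 28.9, 29.7 and 31.5 CPM in WT and 37.5, 36.2 and 41.0 CPM in KO, by 0.41 on the log2 scale in WT (SE 0.06, adjusted p = 4.97e-07) and by 0.45 in KO (SE 0.058, adjusted p = 4.88e-08), while Cox6a1 rose by 0.37 (SE 0.045, adjusted p = 1.47e-08) in WT. Cox6a2 overlaps Itgad by 69 bases on the opposite strand.

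Klk1 encodes tissue kallikrein, a serine protease that releases kinins. It was by far the scarcest marker, with 11 to 187 counts in a library. Untreated values were 2.34, 2.61 and 2.69 CPM in WT and 2.16, 1.49 and 1.74 CPM in KO, without overlap. KO was lower in all 5 conditions, by log2 differences of -0.50, -0.84, -0.51, -0.71 and -1.02 at adjusted p of 0.035, 0.0015, 0.0388, 0.00421 and 1.74e-05. In untreated cultures the call was lost without KO untreated replicate 2 or 3 or WT untreated replicate 2 or 3, with values of -0.39, -0.48, -0.49 and -0.46 at adjusted p of 0.193, 0.0929, 0.102 and 0.116. At 30 min of Jurkat cells it was lost without KO 30 min Jurkat replicate 1 or 3 or WT 30 min Jurkat replicate 2 or 3, with values of -0.40, -0.51, -0.55 and -0.38 at adjusted p of 0.163, 0.0984, 0.0648 and 0.19. With OVA for 4 h it was lost without KO 4 h OVA replicate 1, with a value of -0.55 at adjusted p of 0.063. With only the compared groups fitted, the call was also lost untreated, at adjusted p = 0.0647, and at 30 min of Jurkat cells, at adjusted p = 0.0776. After 4 h of Jurkat cells Klk1 read 4.04, 5.59 and 4.21 CPM in WT and 2.44, 2.17 and 2.22 CPM in KO. The rise from untreated was 0.85 (SE 0.14, adjusted p = 4.22e-06) in WT, and the KO value was 0.34 (SE 0.16, adjusted p = 0.0564), which passed with DESeq2's size factors and DESeq2, at adjusted p of 0.0261 and 0.0334. Without untreated KO replicate 1 the KO value was 0.49 and passed, at adjusted p = 0.0138. With 4 h of OVA, KO fell by 0.52 (SE 0.17, adjusted p = 0.0481) from untreated KO. That call was lost without KO 4 h OVA replicate 1 or 2 or 3 or KO untreated replicate 1 or 3, with values of -0.36, -0.59, -0.60, -0.36 and -0.54 at adjusted p of 0.292, 0.0577, 0.0566, 0.254 and 0.0853. With no filter it was -0.51 at adjusted p = 0.0577, and with the compared groups alone -0.51 at adjusted p = 0.0916. Klk1 has 13 Klk1b relatives in the table, of which 11 had too few counts to test. How reads were split among them is not given in the sources used here, so its level is uncertain.

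Per kilobase of exon, the order of the 9 levels in untreated WT cultures was Bst2 at 591 CPM per kb, Ly6d at 272, Siglech at 244, Spib at 151, Runx2 at 68.4, Cox6a2 at 58.6, Ccr9 at 48.5, Tcf4 at 29.3 and Klk1 at 2.67. Lengths are the union of exons in GENCODE M21, which may not be the annotation the authors counted on. Neighbours in this order did not overlap between the 3 libraries.

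Treatment calls among the markers were few except with Jurkat cells for 4 h. In WT cultures, 30 min of OVA gave none, against 10.7% of all genes. By unadjusted p under 0.05 there was 1, Spib, and DESeq2 also called it. In KO cultures the same treatment gave 1 against 3.77%, the fall of Spib (1.88% of all genes fell). With 30 min of Jurkat cells 3 rose in WT, where 14.2% of all genes rose and 28.7% were called either way: Ly6d by 0.16 (SE 0.062, adjusted p = 0.0461), Ccr9 by 0.24 (SE 0.08, adjusted p = 0.0231) and Cox6a2 by 0.17 (SE 0.058, adjusted p = 0.0276). In KO none did by edgeR against 17%, 2 had an unadjusted p under 0.05, Ly6d at 0.17 and Ccr9 at 0.21, and DESeq2 called 1 of these, Ly6d. The WT call of Ly6d was lost without WT 30 min Jurkat replicate 1 or 2 or WT untreated replicate 1 or 2 or 3, with values of 0.11, 0.16, 0.15, 0.18 and 0.16 at adjusted p of 0.275, 0.112, 0.11, 0.0647 and 0.109. That of Ccr9 was lost without WT 30 min Jurkat replicate 1 or 3 or WT untreated replicate 2 or 3, with values of 0.21, 0.22, 0.24 and 0.23 at adjusted p of 0.0916, 0.0688, 0.0613 and 0.071. That of Cox6a2 was lost without WT 30 min Jurkat replicate 1 or 2 or WT untreated replicate 1, with values of 0.15, 0.15 and 0.11 at adjusted p of 0.111, 0.0948 and 0.173. With the compared groups alone Ly6d stood at adjusted p = 0.0536 and Cox6a2 at 0.0578, and with DESeq2's size factors Ly6d at 0.0576. The WT count was 0 without WT 30 min Jurkat replicate 1, and 1 without WT 30 min Jurkat replicate 2 or any 1 untreated WT replicate, while the KO count was 2 without untreated KO replicate 1. In WT the 30 min OVA count was 1 without WT 30 min OVA replicate 2, and in KO it was 0 without KO 30 min OVA replicate 2 or untreated KO replicate 1. With 4 h of OVA 1 marker rose in WT, where 11.9% of all genes rose and 23.5% were called. In KO 1 rose and 1 fell, where 5.94% of all genes rose, 5.69% fell and 11.6% were called. Ccr9 was not called in KO, but at -0.23 it passed with total counts, no filter and the stricter filter, at adjusted p of 0.0393, 0.0394 and 0.0425. It also passed with the replicate block within genotypes, the compared groups alone and DESeq2, at adjusted p of 0.0446, 0.00632 and 0.0293. The KO count was 1 without any 1 KO 4 h OVA replicate, or without untreated KO replicate 1 or 3.

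With Jurkat cells for 4 h most genes tested were called, and the markers moved in both directions. Against untreated WT 6 markers rose and 3 fell, where 38.9% of all genes rose, 40.6% fell and 79.5% were called. Against untreated KO 5 rose and 3 fell, where 37.5% of all genes rose, 41% fell and 78.5% were called. With 4 h of OVA as the reference instead, 6 rose and 2 fell in each genotype, where 37.2% of all genes rose and 40.3% fell in WT (77.5% called) and 36.3% and 40.1% in KO (76.4% called), and Siglech was the marker not called, at -0.01 (SE 0.057, adjusted p = 0.864) in WT and -0.08 (SE 0.057, adjusted p = 0.21) in KO. With total counts Siglech was called lower than with OVA, at -0.40 in WT (adjusted p = 4.19e-08) and -0.42 in KO (adjusted p = 1.69e-08). Tcf4, among the 6 that rose, lost its call with that scaling, at 0.08 in WT (adjusted p = 0.18) and 0.02 in KO (adjusted p = 0.728). The fall of Ccr9 against OVA in WT, -0.18 (SE 0.08, adjusted p = 0.0428), was lost without WT 4 h Jurkat replicate 1 or 3 or WT 4 h OVA replicate 1 or 3, at -0.15, -0.09, -0.18 and -0.17 and adjusted p of 0.133, 0.339, 0.072 and 0.098. It was also lost with DESeq2's size factors, DESeq2, the stricter filter and the compared groups alone, at -0.11, -0.11, -0.13 and -0.18 and adjusted p of 0.229, 0.22, 0.14 and 0.0715. Runx2, called at 0.20 in WT and 0.16 in KO, was lost in WT without WT 4 h Jurkat replicate 2, at 0.11 and adjusted p = 0.108. In KO it was lost without KO 4 h Jurkat replicate 1 or 3 or KO 4 h OVA replicate 1 or 3, at 0.15, 0.12, 0.15 and 0.15 and adjusted p of 0.0544, 0.118, 0.0592 and 0.0663. The shares called do not set the markers apart from other genes.

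Scaling bears on every level at that time. TMM factors were 0.765 to 0.842 in the 6 libraries given Jurkat cells for 4 h and 1.03 to 1.07 in the other 24, and with total counts in their place the median of all genes moved to -0.42 in WT and -0.37 in KO against untreated. Relative to that shift the order of the markers was kept, but zero fell elsewhere: with total counts 4 markers rose and 4 fell in WT, and 3 rose and 4 fell in KO. Bst2, Ly6d and Spib rose, and Ccr9 and Cox6a2 fell, against untreated in both genotypes under TMM, total counts and DESeq2's size factors. The share of higher calls among all genes went from 48.9% to 29.0% in WT. Between the genotypes at 4 h of Jurkat cells that share went from 40.9% to 74.8%, and the markers' count went from 7 lower and 1 higher to 6 lower and 1 higher.

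**Figure D3:**
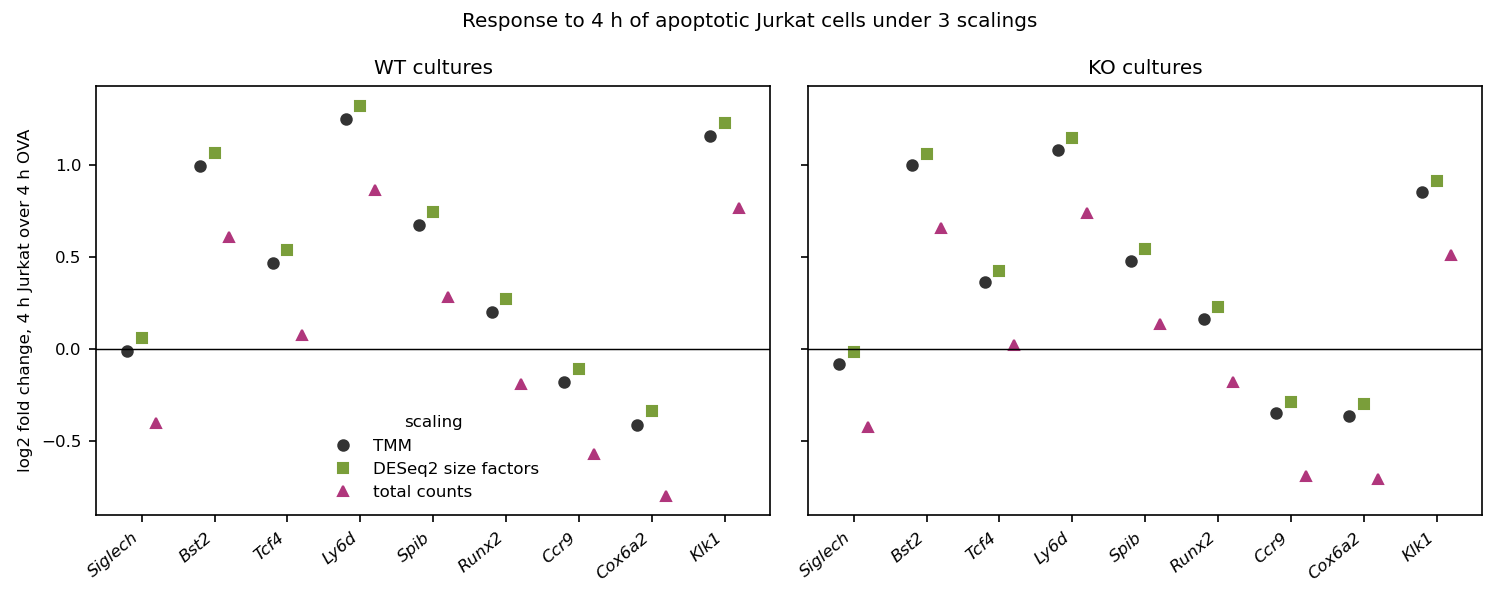
Log2 fold change of 4 h Jurkat over 4 h OVA (vertical axis) for the 9 markers in WT (left) and KO (right) under TMM, DESeq2 size factors and total counts. Bst2, Ly6d, Spib and Klk1 lie above 0 and Ccr9 and Cox6a2 below 0 under all 3 scalings, while Runx2 lies on both sides.

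T-lineage markers moved with these libraries. Their summed level was 90.6 to 97.8 CPM in untreated WT, 133 to 137 CPM at 30 min and 193 to 229 CPM at 4 h of Jurkat cells, and 94.4 to 100.4 CPM, 114 to 124 CPM and 163 to 180.3 CPM in KO. At 4 h 17 of 19 rose in WT and 15 in KO, where 38.9% and 37.5% of all genes rose. How human reads were handled is not given in the sources used here, and their part in the markers' levels was not tested.

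No marker's response was called different between KO and WT by edgeR's interaction test. For OVA at 30 min, Jurkat cells at 30 min and OVA at 4 h, edgeR and DESeq2 both called 0 of 9, with 1 (Siglech, -0.17), 0 and 0 at an unadjusted p under 0.05; among all genes 0, 0.00675% and 0.0405% were called. For Jurkat cells at 4 h edgeR called 0 of 9 against 4.26% of all genes. At an unadjusted p under 0.05 there were 4, each with a smaller rise or larger fall in KO: Ly6d at -0.26 (SE 0.087, adjusted p = 0.0871), Spib at -0.20 (SE 0.09, adjusted p = 0.21), Ccr9 at -0.25 (SE 0.11, adjusted p = 0.219) and Klk1 at -0.51 (SE 0.22, adjusted p = 0.184). DESeq2 called 1, Ly6d, at -0.26 and adjusted p = 0.0495, and edgeR called it without WT 4 h Jurkat replicate 1, at -0.31 and adjusted p = 0.0448.

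The ratio of one marker to another within a library does not depend on scaling. Relative to Siglech, Cox6a2 was higher in KO in all 5 conditions without overlap, by log2 differences of 0.65, 0.84, 0.49, 0.55 and 0.66. Ccr9 was also higher relative to Siglech, by 0.35, 0.34, 0.29, 0.27 and 0.17, and so was Ly6d, by 0.29, 0.46, 0.26, 0.19 and 0.09. Each of these comparisons without overlap has an exact permutation p of 0.1, the smallest that 3 against 3 libraries allow, or 0.145 adjusted over 120 tests. Since Siglech itself was lower, 34.3% of all genes tested did the same in all 5 conditions, so this sets those markers apart from Siglech and not from other genes. The log2 ratio to Siglech differed between KO and WT by 0.11, 0.14, 0.13, 0.10 and 0.06 for Tcf4, without overlap in the first 4 conditions. For Klk1 it differed by -0.26, -0.51, -0.29, -0.46 and -0.69, without overlap with OVA at either time and with 4 h of Jurkat cells. The differences were, for Bst2, -0.10, 0.03, -0.14, -0.11 and -0.04; for Spib, 0.03, 0.12, 0.02, 0.02 and -0.11; and for Runx2, 0.02, 0.09, 0.03, 0.04 and 0.08. Among these, libraries did not overlap for Bst2 at 30 min of Jurkat cells, Spib at 4 h of Jurkat cells, and Runx2 at 30 min of OVA and 4 h of Jurkat cells.

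A further 30 genes enriched in plasmacytoid cells, none of them among the 9, split between the genotypes. In untreated cultures 8 were lower and 6 higher in KO, where 3.97% of all genes tested were lower and 6% higher. The median log2 difference over the 30 was -0.09. The counts were 14 lower and 5 higher with 30 min of OVA (6.13% and 6.25% of all genes). With 30 min of Jurkat cells they were 10 and 6 (3.67% and 5.58%). They were 7 and 5 with 4 h of OVA (6.35% and 6.22%), and 12 and 5 with 4 h of Jurkat cells (13.5% and 9.37%). In all 5 conditions 6 were called lower (Cd300c, Lag3, Rpgrip1, Ly6c2, Plac8 and Ptprf) and 4 higher (Maged1, Dntt, Jchain and Hepacam2). Among all genes tested the shares were 0.831% lower and 1.45% higher. Ly6c2, a Ly6C surface antigen shared with monocytes, ran from 115 to 119 CPM in untreated WT and from 42.0 to 44.6 CPM in KO, a log2 difference of -1.43 (SE 0.081, adjusted p = 9.68e-13). Jchain, the joining chain of secreted antibodies, stood at 3.92 ± 0.558 CPM and 13.9 ± 1.13 CPM (SD, n = 3), a difference of 1.83 (SE 0.13, adjusted p = 6.95e-11). Dntt, the terminal transferase of lymphoid progenitors, ran from 40.2 to 43.8 CPM and 68.5 to 72.2 CPM, a difference of 0.72 (SE 0.055, adjusted p = 2.4e-10). Like Cox6a2, these last genes were higher in KO while Siglech was lower. With 4 h of Jurkat cells Hepacam2 went from 89.7 ± 2.69 CPM to 2.99 ± 0.247 CPM in WT (SD, n = 3), a log2 change of -4.91 (SE 0.074, adjusted p = 5.59e-29). Of the 30, 10 rose and 14 fell in WT at that time, where 38.9% of all genes rose and 40.6% fell. With total counts, where the median of all genes also moved down, 7 rose and 19 fell.

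**Figure D4:**
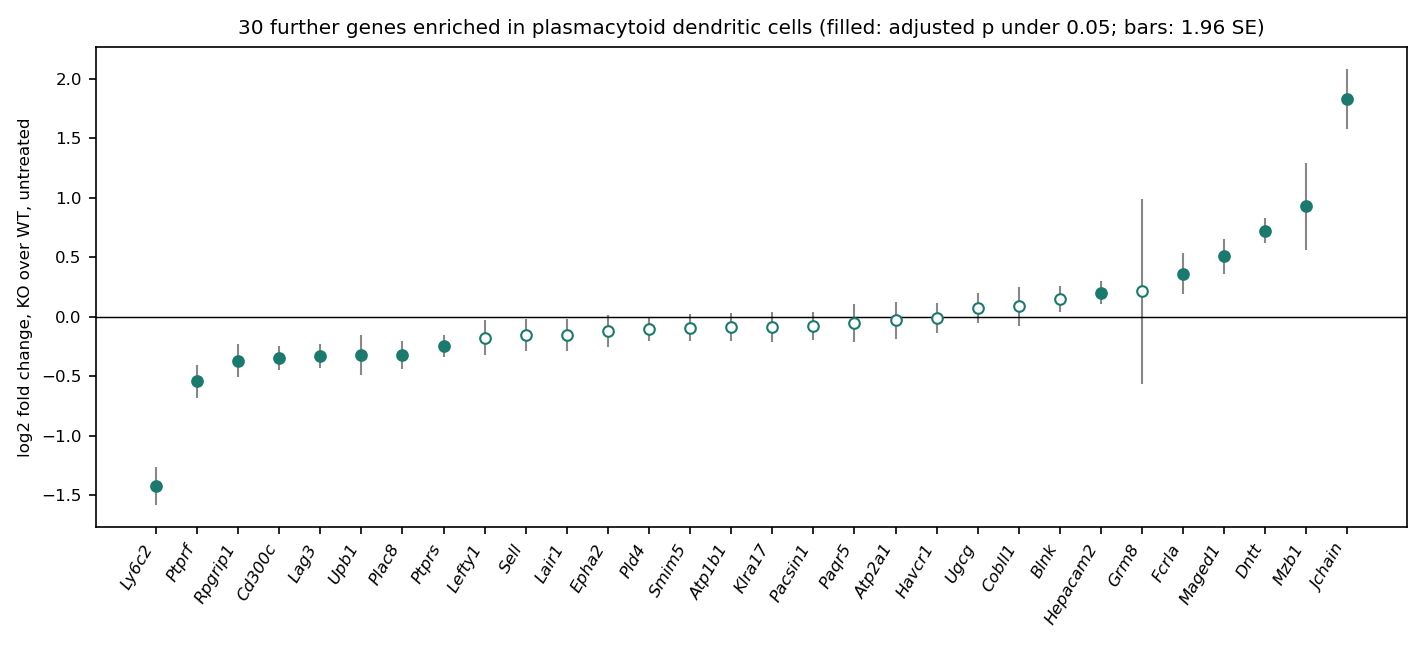
Log2 fold change of KO over WT in untreated cultures (vertical axis) for 30 further plasmacytoid-enriched genes, with bars of 95% intervals and filled points where adjusted p was under 0.05. Filled points lie on both sides of 0, from Ly6c2 at -1.43 to Jchain at 1.83.

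Regulators of the plasmacytoid programme were called about as often as all genes between untreated genotypes. Of 11 listed partners and upstream factors, 1 was lower in untreated KO cultures, where 3.97% of all genes were lower and 9.97% called either way: Irf7, the factor that switches on interferon genes and is itself induced by interferon, at -1.08 (SE 0.15, adjusted p = 1.29e-05). None was called at 30 min of Jurkat cells, and 2 and 3 were lower with OVA at 30 min and 4 h, against 6.13% and 6.35% of all genes. At 4 h of Jurkat cells 7 were lower by TMM, against 13.5%, but with total counts 1 was lower and 2 higher. The family relatives of E2-2 and Runx2 were not called in untreated cultures: Tcf12 differed by 0.00, Tcf3 by 0.02, Runx1 by -0.04 and Runx3 by 0.05. Over all conditions Tcf12 was called lower in KO in 2, and the others in none. Among 5 factors that oppose the programme or drive conventional dendritic cells, Zbtb46 was lower in untreated KO, -0.13 (SE 0.042, adjusted p = 0.0427), and Id2, which blocks E2-2, was not called, at -0.07 (SE 0.045, adjusted p = 0.401). Among 14 genes of endosomal nucleic acid sensing, 2 were lower in untreated KO, against 3.97% of all genes, and none was higher. These were Tlr7 at -0.28 (SE 0.087, adjusted p = 0.0394) and its chaperone Unc93b1 at -0.12 (SE 0.034, adjusted p = 0.0283). At 4 h of Jurkat cells 7 of the 14 were lower in KO, against 13.5% of all genes, and none higher. Among them was Slc15a4, an endolysosomal transporter needed for signalling by these receptors, at -0.23 (SE 0.041, adjusted p = 0.000179). With total counts 5 of the 14 were lower and 3 higher.

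Markers of some other cell types also differed between the cultures, and their part in the marker differences was not tested. Of all genes tested, 6% were called higher and 3.97% lower in untreated KO cultures. In the other conditions 5.58% to 9.37% were called higher. All 8 basophil or mast cell markers tested were higher in untreated KO, with a summed level of 60.3 to 93.5 CPM against 23.6 to 30.1 CPM in WT, and 7 or 8 were higher in the other conditions. Of 12 stromal markers 8 were higher, with sums of 884 to 1142 CPM against 704 to 791 CPM, and 5 to 8 in the other conditions. Type 2 conventional dendritic cell markers were called higher for 4 of 12 and lower for 1 in untreated KO, and type 1 markers higher for 1 of 12 and lower for 2. Of 10 B-lineage markers tested, 2 were higher, and their sum was 86.5 to 88.2 CPM against 79.2 to 85.1 CPM.

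Likeness over the 10 group means was measured as the root-mean-square difference of log2(CPM + 0.5) after each gene was centred on its own mean. Within the 9, Tcf4 and Runx2 were nearest to each other, at 0.113, and at 0.043 over the 8 groups without 4 h of Jurkat cells. Cox6a2 and Ccr9 were nearest to each other over 10 groups, at 0.204. Among 10222 other genes at 5 CPM or more, Gria3 was near to Siglech, at 0.063, where the median gene was at 0.256. For Bst2 the nearest were H2-T23 at 0.051 and Tmem219 at 0.075, for Tcf4 Sms at 0.029 and Slco3a1 at 0.036, and for Spib Ccnd1 at 0.070 and Lag3 at 0.076. For Ly6d they were Mthfsl at 0.061 and Fcrl1 at 0.073, for Ccr9 Hddc2 at 0.054 and Cxcr4 at 0.065, and for Cox6a2 Bdh1 at 0.044 and Il12a at 0.071. Runx2 was nearest to Cep57 at 0.048, and Klk1 to Rpgrip1 at 0.156. The group means share libraries, depth and scaling, and these values are a description.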

How the data were processed

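RNA was measured in 30 libraries of mouse dendritic cell cultures, 3 in each of 10 groups. The deposited table holds raw read counts per gene. The submitters' processing notes name STAR 2.5, Subread, featureCounts 1.5.0-p1 and DESeq2 and the build mm10, with no settings. The sources used here give neither strand use nor the treatment of human reads. The counts were fitted as deposited with edgeR 4.0.16 in R 4.3.3: filterByExpr by group, TMM scaling, 1 quasi-likelihood fit with a mean per group over all 30 libraries, and Benjamini-Hochberg adjustment over 14808 genes, which held 99.99% of the counts. Standard errors are the log2 change over the square root of F, and 95% intervals are built from them. The test was checked on simulated counts for untreated KO against WT over 14808 genes. It recovered 44% of 50 genes changed 1.2-fold and 84% of 50 changed 1.5-fold. Of its calls 7.06% were false, above the nominal 5%. The simulation gave all genes the same spread and drew libraries independently. It therefore does not cover outlying or correlated libraries such as those seen here.

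The markers and gene lists were chosen with earlier results of these data known. From each other list, genes were named by the smallest p among those called at 1 CPM or more, up to 4 per comparison. Id2 and the further plasmacytoid genes called in all 5 conditions were named after their values were seen. Family relatives could all be named, and up to 2 of the nearest genes by pattern for each marker; 1 such result is not reported here. Same-numbered replicates had every correlation over 0.1, the rule set for deviating together, in 1 of 15 comparisons. That was untreated KO against WT, with correlations of 0.111 to 0.272. Some other comparisons had single values over 0.1. Against untreated WT, correlations ran from -0.03 to 0.36 for 30 min of OVA and 0.07 to 0.17 for 30 min of Jurkat cells. They ran from 0.04 to 0.16 for 4 h of OVA and -0.14 to 0.04 for 4 h of Jurkat cells. Alternatives were DESeq2 1.42.0, its size factors, total counts, other filters, a replicate block, fits of the compared groups alone and leaving out each library.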

Additional observations from a re-analysis of the deposited data

How the results depend on the processing

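For the number of markers called, 116 combinations of a comparison with another setting stayed within 1.5 times the reported count and 17 did not; these follow. In WT cultures given OVA for 30 min, 1 marker was called with total counts, with no filter, with the stricter filter, with the replicate block within genotypes and with DESeq2, against 0. In WT given Jurkat cells for 30 min, 1 was called with the compared groups alone, against 3. In WT given OVA for 4 h, 2 were called with total counts, the stricter filter, the replicate block within genotypes and DESeq2, and 3 with the compared groups alone, against 1. In KO given Jurkat cells for 30 min, 1 was called with total counts, the stricter filter and DESeq2, and 2 with the replicate block within genotypes and with the compared groups alone, against 0. For the difference in response to 4 h of Jurkat cells, DESeq2 called 1, against 0.

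Leaving out 1 library at a time, the markers called between genotypes ranged from 3 to 6 untreated, 7 to 7 with 30 min of OVA, 2 to 4 with 30 min of Jurkat cells, 3 to 6 with 4 h of OVA and 6 to 9 with 4 h of Jurkat cells. Against untreated WT the ranges were 0 to 1 for 30 min of OVA, 0 to 2 for 30 min of Jurkat cells, 1 to 1 for 4 h of OVA and 8 to 9 for 4 h of Jurkat cells. Against untreated KO they were 0 to 1, 0 to 2, 1 to 2 and 7 to 9. For 4 h of Jurkat cells against OVA they were 7 to 8 in each genotype. For the differences in response they were 0 to 0 for the first 3 treatments and 0 to 1 for 4 h of Jurkat cells.

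Runx2 reversed with total counts: against untreated it stood at -0.20 in WT (adjusted p = 0.00171) and -0.15 in KO (adjusted p = 0.0201), and against 4 h of OVA at -0.19 in WT (adjusted p = 0.00349) and -0.18 in KO (adjusted p = 0.00577). The median of all genes moves with that scaling by construction. A replicate block left the count in untreated KO against WT at 6, and between genotypes it ended the call of Spib at 30 min of Jurkat cells (adjusted p = 0.057) and changed no other genotype call. Single markers changed sign under another setting 109 times where neither value was called. With 11 to 187 counts a library, Klk1 is limited by depth. The cause of the other shifts was not tested.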
